A study of Danio rerio with 4 samples.

Results

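The genes described here encode proteins of the sarcomere, the contractile unit of skeletal muscle and heart, together with their close relatives. They were chosen by name: every gene of the array whose symbol starts with myh, myl, tnnc, tnni, tnnt, tpm, mybpc, pvalb, ckm, actn, tmod, smyd1 or ryr. The rule found 70 genes among 9665 named genes, carried by 147 of 20406 probes. RefSeq's current gene table holds 111 zebrafish symbols of this form, and the other 41, which include all 5 ryr genes, had no named probe here. Of the 70, 52 were counted as muscle genes. The other 18 are smooth muscle, non-muscle or mitochondrial relatives or regulators, among them ckmt2b, a mitochondrial creatine kinase gene of muscle, and tpmt.1 and tpmt.2, thiopurine methyltransferase genes that share only the letters of the tropomyosins.

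Whole zebrafish embryos of 28 hours after fertilization were compared. The NHA9 embryos came from crossing the floxed line Tg(spi1::lox-eGFP-lox::NHA9) to a line with Cre behind the hsp70 promoter, so that Cre removes the eGFP cassette and the spi1 promoter, active in myeloid cells, drives NHA9, the leukaemia fusion NUP98-HOXA9. The lGl embryos had the same floxed line and wild-type AB fish as parents and kept the cassette. Both kinds carry the transgene and both were kept at 37 °C for 1 hour at the age of 24 hours, 4 hours before RNA was taken. Because Cre and the second parent changed along with the fusion, what each contributes to a ratio cannot be told apart. Each of 4 arrays gave 1 ratio per probe between the 2 kinds of embryo. There were 2 pairs of RNA extracts, and each pair was measured on a forward array, with NHA9 in Cy5, and on a dye swap.

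In the sarcomere, thick filaments of myosin pull on thin filaments of actin. Troponin and tropomyosin on the thin filament open it to myosin when calcium is released through ryanodine receptors, alpha-actinin anchors thin filaments at the Z-disc, and myosin-binding protein C sits on the thick filament. Parvalbumin binds calcium in fast fibres and creatine kinase buffers their ATP. At this stage of zebrafish life the trunk muscle twitches and the heart beats, and fast fibres, slow fibres and heart muscle use partly different genes for the same part. The transgene's promoter is known for myeloid cells and not for muscle.

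Ratios are on the log2 scale, a base taken from the width of the values and not stated with them. They are given as NHA9 over lGl, the likely direction from the titles of the forward arrays, with all 4 columns read as this single contrast. If that direction is wrong, every sign turns. If the columns were instead deposited by dye, the ratio of NHA9 over lGl would be 0.5 times the forward value minus the dye-swap value, which is given beside the mean and called the orientation part. The files do not state which reading holds, and arrays of both orientations correlated positively within each pair (r = 0.747 in replicate 1 and 0.465 in replicate 2 over all probes). Differences between the 2 pairs on forward arrays correlated with those on dye swaps at 0.814 over all items. In columns deposited by dye, a difference between extracts would turn its sign on the dye swaps. An array and its dye swap counted as 1 replicate, n was 2, and p-values are from limma with Benjamini-Hochberg adjustment over 13261 genes and unnamed probes. These p-values come from 2 pairs of extracts, which the labels call biological replicates without giving the number of embryos or clutches. For the mean ratio, limma pooled the differences between the pairs over all items into a common SD of 0.43. This gave every mean a 95% interval of ±0.59. A gene's own SD, given below after ±, therefore did not decide the p-value of its mean. The smallest mean called, in either direction, was 0.96. Without spot intensities no level can be compared between genes, and the presence of muscle RNA in these embryos could not be checked against a background. In whole embryos, fewer cells of a type and less RNA per cell cannot be told apart.

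Of the 70 genes, 5 were higher in NHA9 embryos at an adjusted p of 0.05 in limma, 0 were lower and 65 did not pass. At an unadjusted p under 0.05, 11 were higher and 2 lower (18.6%, against 10.4% of all items). The 5 calls at the adjusted threshold are 7.14% of the 70, against 2.84% of all 13261 items called in either direction and 2.04% called higher. The 5 were the Z-disc gene actn2b, the mitochondrial creatine kinase gene ckmt2b, the troponin T genes tnnt1 and tnnt2c, and the smooth muscle myosin gene myh11a. All 5 had one sign on the 4 arrays, whose values are the same ones the calls were made from. The median ratio of the 70 was 0.17 (0.19 in replicate 1 and 0.18 in replicate 2), against 0.02 for all items, and single genes lay between −0.94 and 1.29. With the replicate as a random block and a dye term, actn2b, ckmt2b and tnnt1 were called, and with that block and no dye term 0 of the 70 passed (limma adjusted p of the 5 from 0.0855 to 0.404; 10 of the 70, 14.3%, at an unadjusted p under 0.05, against 12.2% of all items), while 114 of all items passed.

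**Figure D1:**
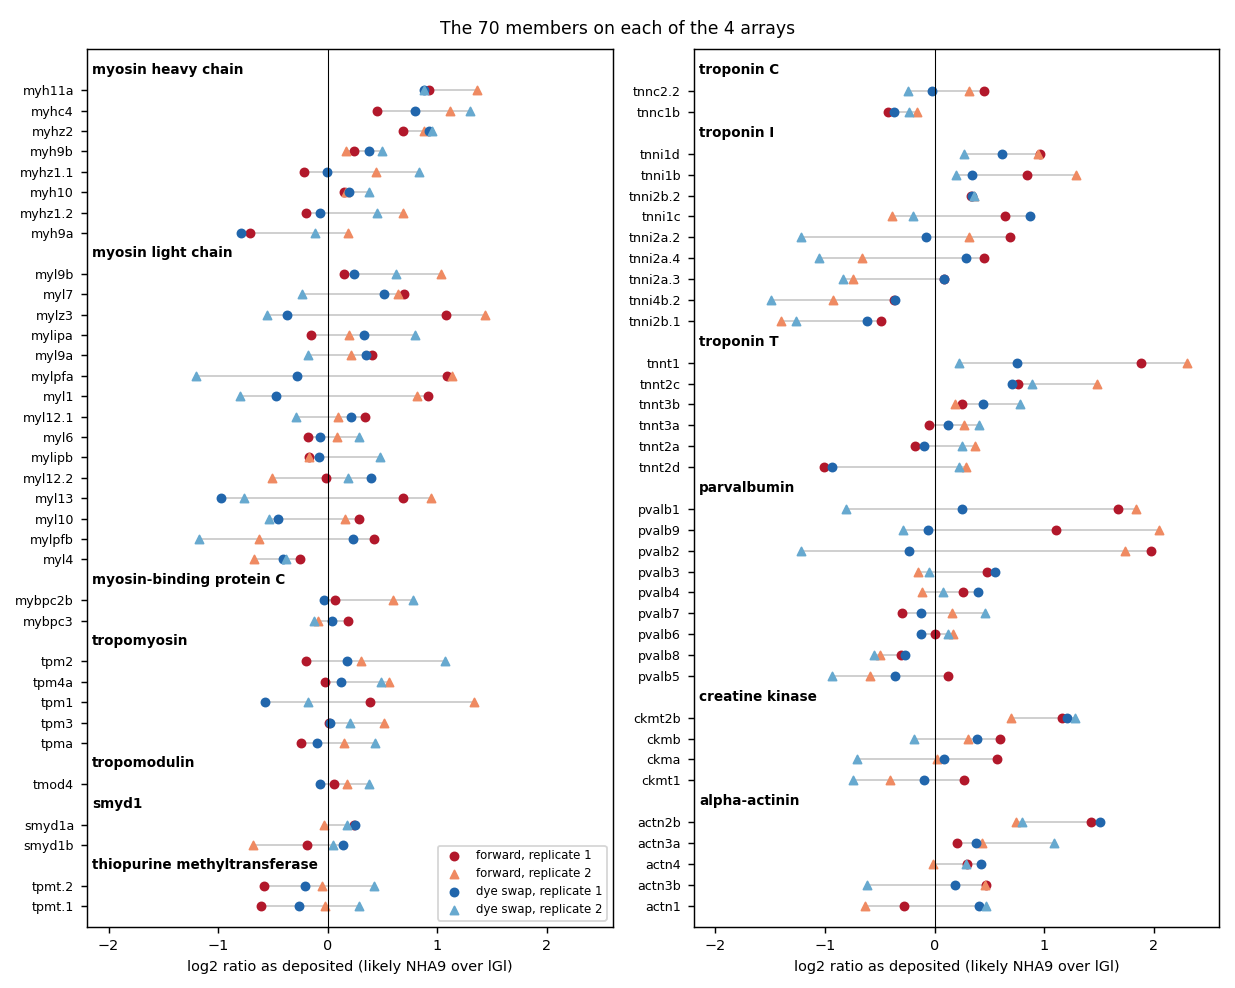
Deposited log2 ratio (x axis) of each of the 70 genes (rows, grouped by class and sorted by mean) on the 4 arrays; red marks are forward arrays, blue marks are dye swaps, circles are replicate 1 and triangles replicate 2, and a grey line joins the lowest and highest array. Genes such as actn2b (0.74 to 1.51) keep all 4 marks on one side of 0, while pvalb2 and mylpfa have red marks above 0 and blue marks below.

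The gene actn2b encodes alpha-actinin 2, which cross-links actin at the Z-disc of heart and skeletal muscle. In replicate 1 its ratio was 1.43 on the forward array and 1.51 on the dye swap, and in replicate 2 it was 0.74 and 0.80. Below, values on forward arrays and on dye swaps are given with replicate 1 before replicate 2. All 4 values were above 0, and both arrays of replicate 1 were higher than both of replicate 2. The mean was 1.12 ± 0.50 (SD, n = 2; limma adjusted p = 0.0102), a 2.18-fold difference. The fast-fibre paralogues did not pass: actn3a stood at 0.53 ± 0.33 with one sign on all arrays, and actn3b at 0.13, with 0.47 and 0.46 on forward arrays against 0.18 and −0.61 on dye swaps.

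The gene ckmt2b encodes a mitochondrial creatine kinase of the sarcomeric type, which charges creatine at the mitochondrion. It stood at 1.16 and 0.70 on forward arrays and at 1.21 and 1.28 on dye swaps, a mean of 1.09 ± 0.14 (limma adjusted p = 0.0146; 2.12-fold). Its 2 probes gave 1.02 and 1.15, and both passed when every probe was tested apart (limma adjusted p = 0.0428 and 0.0122). The other mitochondrial gene, ckmt1, averaged −0.24, and 1 of its 3 probes, at −0.67, stood below the other 2, at −0.12 and 0.05. The cytosolic muscle kinases ckma and ckmb stood at −0.005 and 0.28 and did not pass. With forward arrays alone ckmt2b did not pass either (0.93, limma adjusted p = 0.0758), while with dye swaps alone it did (1.25, adjusted p = 0.00297).

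Troponin T ties troponin to tropomyosin. The probe named tnnt1 read 1.88 and 2.31 on forward arrays and 0.76 and 0.23 on dye swaps, all above 0 with both forward arrays higher. Its mean was 1.29 ± 0.04 (limma adjusted p = 0.00128; 2.45-fold), but with dye swaps alone it was 0.49 and did not pass (adjusted p = 0.55). The platform table gives the name tnnt1 also to both probes that RefSeq now assigns to tnnt2c, a slow-type troponin T, so this probe may belong to the same gene. On its own probes tnnt2c stood at 0.77 and 1.48 on forward arrays and at 0.71 and 0.89 on dye swaps, a mean of 0.96 ± 0.32 that passed narrowly (limma adjusted p = 0.0495; 1.95-fold). Its 2 probes averaged 1.31 and 0.61, and with the median of probes in all genes it did not pass (adjusted p = 0.0516). When the 3 probes were joined, a choice made after their values were seen, tnnt2c averaged 1.07 and was called.

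The remaining troponin T genes did not pass. The fast-fibre gene tnnt3b had 4 probes between 0.36 and 0.50 and a mean of 0.42 ± 0.10, with one sign on all arrays, and its relative tnnt3a stood at 0.18. The heart gene tnnt2a averaged 0.09, with both arrays of replicate 1 below 0 and both of replicate 2 above. The gene tnnt2d was split the same way and further, at −0.97 in replicate 1 and 0.26 in replicate 2, with the forward array and dye swap of each within 0.1 of each other. Its 2 pairs of extracts thus did not overlap, and the mean of −0.36 describes neither.

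Troponin I blocks the thin filament at low calcium, and its 9 genes ran from −0.94 to 0.70 with 0 past the threshold in limma. At an unadjusted p under 0.05, 2 were higher and 2 lower, against 10.4% of all items in either direction. The lowest of all 70 genes was tnni2b.1, at −0.49 and −1.40 on forward arrays and at −0.62 and −1.26 on dye swaps (mean −0.94 ± 0.55, limma adjusted p = 0.0586). After quantile normalization it passed (adjusted p = 0.0413). The gene next to it in RefSeq's order, tnni2b.2, was at 0.33, 0.36, 0.34 and 0.36 on the same arrays, the narrowest spread among the 70. The neighbouring paralogues therefore lay on opposite sides of 0 on every array, while neither passed.

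Another troponin I gene, tnni4b.2, was negative on all arrays at −0.79 ± 0.60. The genes tnni1b and tnni1d, the first of them a heart marker, were positive on all arrays, at 0.67 ± 0.11 and 0.69 ± 0.13, and did not pass (limma adjusted p = 0.34 and 0.302). The fast-fibre genes tnni2a.2, tnni2a.3 and tnni2a.4 stand next to each other in RefSeq's order and had replicate 1 above replicate 2 in common. tnni2a.4 was at 0.45 and 0.28 on the arrays of replicate 1 and at −0.66 and −1.05 on those of replicate 2, and its 3 probes averaged between −0.29 and −0.22. The slow-type gene tnni1c had the same split, with 0.76 in replicate 1 and −0.29 in replicate 2. Troponin C, the calcium sensor, was measured by tnnc1b at −0.30 and the fast gene tnnc2.2 at 0.12, neither past the threshold.

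Myosin heavy chains are the motors of the thick filament, and 7 of 8 had positive ratios, with 1 call. Of all 13261 items, 6957 had positive ratios and 2.84% were called. The only heavy chain called is not a sarcomere gene. That call was myh11a, the smooth muscle myosin gene, at 0.92 and 1.36 on forward arrays and at 0.88 and 0.88 on dye swaps (mean 1.01 ± 0.15, limma adjusted p = 0.0326; 2.01-fold), from a single probe. With dye swaps alone it did not pass (adjusted p = 0.0885). The sarcomeric genes closest to the threshold were myhc4 at 0.92 ± 0.41 (limma adjusted p = 0.0717) and myhz2 at 0.86 ± 0.08 (adjusted p = 0.109), both positive on all arrays. These 2 genes are adjacent in RefSeq's order, and myhz1.2 and myhz1.1 follow them with 2 genes between.

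The 2 probes of myhz2 gave 1.32 and 0.40. The first of them read 1.35 and 1.35 on forward arrays and 1.40 and 1.17 on dye swaps, and passed when every probe was tested apart (limma adjusted p = 0.0019). The 6 probes of myhz1.1 averaged between 0.12 and 0.32, with a gene mean of 0.26, and myhz1.2 averaged 0.22. Both had replicate 1 below 0 and replicate 2 above 0 on each array, with myhz1.1 at −0.11 and 0.64 in the replicates. These fast myosin genes are close paralogues whose probes were not aligned here, so how much of each value comes from a neighbour's transcript is uncertain. The non-muscle heavy chain myh9a was the lowest of the class at −0.36, but its 4 probes ran from −0.73 to 0.23.

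**Figure D2:**
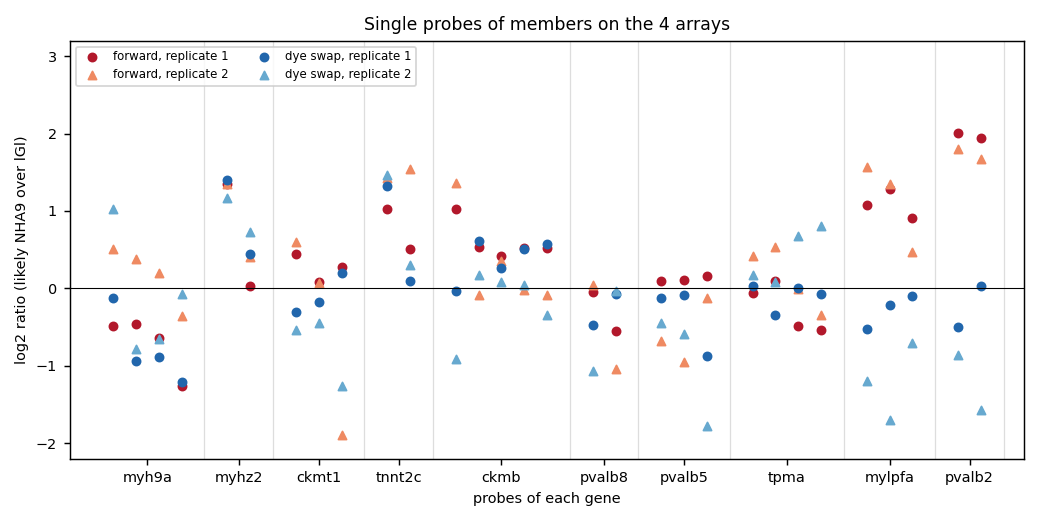
Log2 ratio (y axis) of each probe (x axis, grouped by gene and sorted by mean) on the 4 arrays, with colours and marks as in the plot of all 70 genes; shown are the 4 genes whose probes differ most in their mean, the 4 whose probes differ most between orientations, and mylpfa and pvalb2. One probe of myhz2 sits between 1.17 and 1.40 on every array, and 1 of 5 ckmb probes separates the forward arrays from the dye swaps.

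Light chains steady the lever arm of myosin. Of 13 light chain genes, leaving aside the ligase genes mylipa and mylipb, 0 passed in limma, also at an unadjusted p under 0.05, and the highest, the smooth and non-muscle gene myl9b, was at 0.51. In 6 of the 13 both forward arrays had one sign and both dye swaps the other, against 10.6% of all items. The forward arrays were positive in 5 of these and negative in myl12.2. The fast regulatory light chain gene mylpfa read 1.09 and 1.13 on forward arrays and −0.28 and −1.20 on dye swaps, with a mean of 0.19 ± 0.31 and an orientation part of 0.93 ± 0.34 (limma adjusted p = 4.25e-06). Its 3 probes had orientation parts from 0.55 to 1.14. The essential light chain genes mylz3 and myl1 had the same form. mylz3 was at 1.08 and 1.43 on forward arrays against −0.37 and −0.55 on dye swaps, and myl1 at 0.92 and 0.81 against −0.47 and −0.80.

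The genes myl13 and myl10 were split in the same direction. myl13 had a mean of −0.03 and an orientation part of 0.84 ± 0.02, and myl10 had −0.14 and 0.36 ± 0.02 (limma adjusted p = 1.72e-06 and 0.00999 for the orientation parts). The 2 probes of myl10 differed, with orientation parts of 0.53 and 0.19. The paralogue of mylpfa, mylpfb, was split by replicate, with 0.33 in replicate 1 and −0.90 in replicate 2 and an orientation part of 0.18 that did not pass. Among heart genes, the regulatory light chain gene myl7 stood at 0.40 ± 0.28 and the light chain gene myl4 at −0.43 ± 0.14, negative on all arrays. Neither passed in limma.

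Among parvalbumins, the calcium buffers, 3 of 9 genes had an orientation part past the threshold, all higher on forward arrays, against 9.85% of all items. pvalb2 read 1.98 and 1.74 on forward arrays and −0.23 and −1.22 on dye swaps, so that the orientations did not overlap. Its mean was 0.57 ± 0.43 and its orientation part 1.29 ± 0.26 (limma adjusted p = 1.11e-07), the highest of the 70, and its 2 probes gave orientation parts of 1.29 and 1.29. pvalb1 was at 1.67 and 1.84 on forward arrays and at 0.25 and −0.81 on dye swaps, with an orientation part of 1.02 ± 0.43. pvalb9 had 1.11 and 2.04 on forward arrays against −0.06 and −0.29 on dye swaps.

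The other 6 parvalbumin genes had no orientation part past the threshold when their probes were averaged, although some lie beside these 3. Tested apart in limma, 1 of the 3 pvalb5 probes passed at 0.67 (adjusted p = 2.89e-08), with the others at −0.04 and −0.006. The 2 probes of pvalb8 passed with opposite signs, at −0.37 and 0.38 (adjusted p = 0.00649 and 0.00485). A probe of pvalb7 passed at −0.31 (adjusted p = 0.0275). RefSeq's order places pvalb9, pvalb3 and pvalb2 in a row, and pvalb8, pvalb4, pvalb1 and pvalb5 in another. Between its neighbours, pvalb3 stood at 0.48 and −0.16 on forward arrays and at 0.55 and −0.05 on dye swaps, split by replicate and not by dye. In the second row pvalb4 averaged 0.16, and pvalb8 averaged −0.41 and was negative on all arrays. The lowest parvalbumin was pvalb5 at −0.44 ± 0.45. The mean ratios of the 9 genes ran from −0.44 to 0.74 with 0 past the threshold in limma. At an unadjusted p under 0.05, 2 were higher and 0 lower, against 10.4% of all items in either direction.

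Over all 70 genes, 18 passed for the orientation part in limma, 14 higher on forward arrays and 4 higher on dye swaps. These were 25.7% of the genes, against 15.0% of all items, and the 14 higher on forward arrays stand against 9.85% of all items. The 4 higher on dye swaps stand against 678 of 13261 items. The smallest orientation part called among all items was 0.26, against 0.96 for the mean. Orientation calls therefore reach down to smaller values than calls from the mean. All 14 higher on forward arrays are among the 52 of the 70 counted as muscle genes by name, a count that takes in all 9 parvalbumins. This holds for probes averaged per gene. Tested apart in limma, a probe each of ckmt1, myh9a, myl12.1 and myl9a, counted outside muscle, also passed as higher on forward arrays. Their orientation parts were 0.47, 0.41, 0.39 and 0.31, and the other probes of these genes did not pass. Besides the light chains, the parvalbumins and tnnt1 the 14 were tpm1 at 0.62, tnni2a.2 at 0.57, tnni1b at 0.40, actn3b at 0.34 and ckma at 0.30. The 2 probes of ckma differed, with orientation parts of 0.55 and 0.06. The 4 in the other direction were actn1, the non-muscle alpha-actinin gene, at −0.45, tpm2 at −0.28, the non-muscle light chain gene myl12.2 at −0.28 and mylipa, a ubiquitin ligase gene named for its binding to myosin light chain, at −0.27. Read by dye, these values would be the ratios of NHA9 over lGl, and actn2b at −0.03 and ckmt2b at −0.16 would have the opposite sign and not pass. Of the 5 genes called from the mean, tnnt1 alone was called in that reading too.

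**Figure D3:**
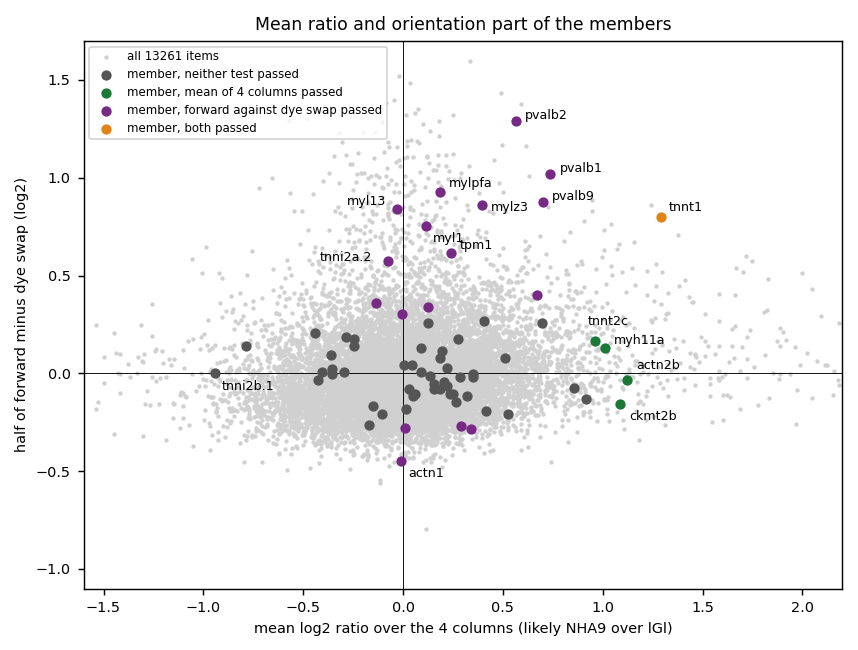
Mean log2 ratio over the 4 columns (x axis) against 0.5 times the forward minus dye-swap difference (y axis); grey points are all 13261 items, except 49 beyond the axes, and coloured points the 70 genes by which limma test they passed. pvalb2 lies highest at 1.29 on the y axis with a mean of 0.57, and actn2b, ckmt2b, myh11a and tnnt2c lie to the right near 0 on the y axis.

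Genes outside the muscle lists were higher on forward arrays too. Of 74 cytoplasmic ribosomal protein genes, 71 were called higher on forward arrays, against 9.85% of all items. Their medians were 0.65 and 1.01 on forward arrays and −0.90 and −1.15 on dye swaps. Whether the muscle genes and the ribosomal genes share a source of this difference was not tested. The orientation part was also alike in both replicates, with a correlation of 0.93 over the 70 genes and 0.834 over all items, while the mean of the pair correlated at 0.457 and 0.339. Genes share the arrays and extracts and are not independent points.

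Sorted by sign alone, 21 of the 70 genes had one sign on all 4 arrays, 16 positive and 5 negative, against 32.6% of all items. In 13 genes (18.6%) the orientations had opposite signs, against 10.6% of all items, and in 10 of these the forward arrays were positive. In another 13 (18.6%) the replicates had opposite signs on both of their arrays, against 22.5% of all items. These 13 held tnnt2d, tnni1c, tnni2a.3, tnni2a.4, mylpfb, myhz1.1, myhz1.2, tpma, pvalb3, pvalb7, tnnt2a, myl6 and mybpc3. Of the 44 genes with more than 1 probe, 0 had probe means more than 1 apart, and the median distance between the lowest and highest probe was 0.205, against 0.241 for the 4649 genes of the array with more than 1 probe. For the orientation part the median distance was 0.344, against 0.223.

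**Figure D4:**
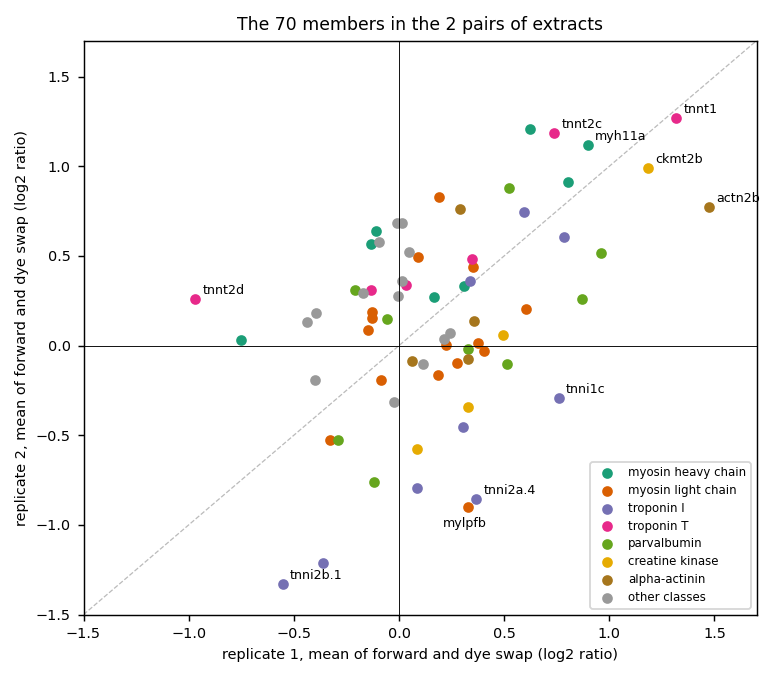
Log2 ratio of each of the 70 genes in replicate 1 (x axis) and replicate 2 (y axis), each the mean of a forward array and its dye swap, coloured by class; the dashed line marks equal values. The called genes lie in the upper right, tnni2b.1 in the lower left (−0.55 and −1.33), and tnni2a.4, mylpfb and tnni1c in the lower right with replicate 1 above 0 and replicate 2 below.

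Tropomyosin, which covers the myosin sites of actin, had 5 genes with positive means, where 6957 of 13261 items were positive. It had 0 calls in limma, also at an unadjusted p under 0.05. tpm2 was the highest at 0.34 and tpma, the main skeletal gene, the lowest at 0.06. tpm1 stood at 0.38 and 1.33 on forward arrays and at −0.57 and −0.18 on dye swaps, so its mean of 0.24 joined values of opposite sign. In tpma, 4 probes averaged between −0.04 and 0.14. Myosin-binding protein C was measured by the fast gene mybpc2b at 0.35 ± 0.47 and the heart gene mybpc3 at 0.004 ± 0.15. The thin-filament capping gene tmod4 averaged 0.13, and the genes of the methyltransferase that helps myosin fold, smyd1a and smyd1b, 0.15 and −0.17. Outside muscle, tpmt.1 and tpmt.2 stood at −0.15 and −0.11, and none of these genes passed.

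Sorted by fibre type, 20 of 24 listed fast-fibre markers were measured, 10 of 13 slow-fibre markers and 8 of 15 heart markers. In limma 0 of the 20 fast-fibre markers passed (2, both higher, at an unadjusted p under 0.05), and 16 were positive, with a median of 0.20. The medians of that list were 0.46 and 0.37 on forward arrays and 0.10 and −0.22 on dye swaps, and 7 of the 20 passed for the orientation part, all higher on forward arrays. For the orientation part 5 of 10 slow-fibre markers (3 higher and 2 lower) and 1 of 8 heart markers passed as well, against 15.0% of all items. Of 10 slow-fibre markers, 4 were positive with a median of −0.08, and tnnt1 was the 1 call. The slow myosin genes smyhc1 and smyhc3 stood at −0.17 and −0.39, with −0.72 and −0.89 in replicate 1 and 0.37 and 0.10 in replicate 2. The third of them, smyhc2, stood at 0.20, with −0.16 in replicate 1 and 0.57 in replicate 2. Of 8 heart markers, 6 were positive with a median of 0.15, and actn2b, also a gene of skeletal muscle, was the 1 call. The atrial natriuretic peptide gene nppa was at 0.83 in replicate 1 and −0.93 in replicate 2. Against these, the median of all items was 0.02, and 6957 of 13261 were positive. In limma 2.84% of items were called, and 10.4% had an unadjusted p under 0.05.

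Of the genes listed for muscle and heart outside the naming rule, 66 were measured, and 0 of the 66 passed for the mean ratio in limma. Listed genes without a named probe were left out, and of 47 structural genes listed 23 were measured. At an unadjusted p under 0.05, 1 was higher and 1 lower (3.03%, against 10.4% of all items). This list shares smyhc1, smyhc2, smyhc3, prdm1a, hand2 and nppa with the markers above. The 23 structural genes measured ran from tcap, a titin-binding Z-disc gene, at −0.56 to the M-band gene myom1a at 0.59, with a median of 0.11. The sarcomeric actins were also higher on forward arrays: actc1b was at 1.09 and 1.57 on forward arrays and −0.94 and −0.86 on dye swaps, and acta1a, acta1b, actc1a and actc1b had orientation parts of 0.72, 0.95, 0.91 and 1.11, all past the threshold. The gene of myosin-binding protein H, mybphb, passed at 0.31, the last of 5 such calls among the 23, all higher on forward arrays. Of all items, 15.0% passed for the orientation part, and 9.85% were higher on forward arrays. Genes of calcium handling (15 measured, median −0.12) ran from the junctional gene jph1b at −0.55 to the calcium pump gene atp2a1l at 0.66, which was 1.36 in replicate 1 and −0.03 in replicate 2. The pump gene atp2a1, at 0.64, was the 1 of these 15 that passed for the orientation part, against 15.0% of all items. Of 9 genes of muscle metabolism, ak1 was lowest at −0.65 and cox6a2 highest at 0.50 (median 0.19). The fatty acid carrier gene fabp3, at 0.88, was the 1 of these 9 that passed for the orientation part.

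The 19 regulators of muscle and heart had a median of −0.11, with six1a lowest at −0.42 and gata5 highest at 0.29. The myogenic factor genes were at 0.28 (myod1), 0.25 (myf5), −0.24 (myf6) and −0.36 (myog), each with one sign on all arrays and none past the threshold. For the orientation part 2 of the 19 were past the threshold in limma, against 15.0% of all items. These were mef2cb at −0.28 and prdm1a, a specifier of slow fibres, at −0.32. Both were higher on dye swaps, as were 678 of 13261 items.

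**Figure D5:**
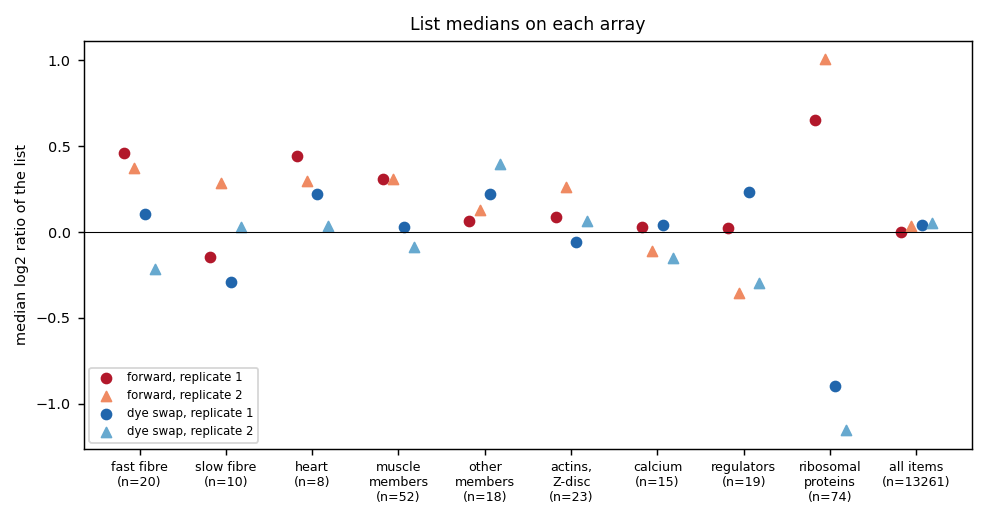
Median log2 ratio (y axis) of each list (x axis, number of genes in brackets) on the 4 arrays, with colours and marks as in the plot of all 70 genes. Fast-fibre genes have higher medians on forward arrays (0.46 and 0.37) than on dye swaps (0.10 and −0.22), in the same direction as ribosomal protein genes, and all items lie near 0.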

How the data were processed

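The deposited log2 ratios of the authors, 1 per probe and array with no missing value, were used as given. Per the labels, arrays had 2 colours, and RNA low in amount was amplified, without saying which. The sources used here do not give log base, centring, direction, background correction, normalization or probe filter. Column medians were −0.01 and −0.01 on forward arrays and 0.03 and 0.03 on dye swaps. Spot intensities were not used, so the number of arrays limits the precision.

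Probes were named by accession (14620), symbol (1676), synonym (506) or the platform's own name (8) through RefSeq's table for GRCz12tu. For 3596 probes no name was assigned, and they were tested singly. The platform table gave 16810 probes 1 symbol each, 0 several, and listed no other probe. Probes of a gene were averaged, and an array was averaged with its dye swap, since the labels put the same extracts on both. Deviations of same-numbered arrays correlated at 0.814 over items. The mean of 2 replicates was tested against 0 with limma 3.58.1 in R 4.3.3 (lmFit, eBayes, Benjamini-Hochberg, threshold 0.05). The fit was also run on simulated ratios without a dye effect, whose changed items lay further from 0 than any member. That run does not bear on ratios as small as those of the members. limma pooled the spread of all genes into an SD of 0.43. The orientation part was tested likewise, but its SDs lay between 0.12 and 0.31. The smallest value called was 0.26 for the orientation part and 0.96 for the mean. The random block used a consensus correlation. Genes were named in the text by rule: every call of either test, the highest and lowest of each class, the 5 widest ranges, core genes of fast fibre, slow fibre and heart, and the calls and ends of each other list. tnni2a.3, tnni2b.2, myhz1.2, myhc4, mylpfb and other members outside it were added after their values were seen. Members and lists were chosen with earlier results of these data known. Alternatives covered direction, blocks, scaling, probe summary, orientation, replicates and membership.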

Additional observations from a re-analysis of the deposited data

Results flagged for a closer look

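In 11 of the 70 genes both forward arrays had the opposite sign from both dye swaps and the difference between orientations passed in limma, so the orientations did not give the same ratio when read as one contrast. Taken singly, opposite signs were found in 18.6% of the 70 and 10.6% of all items. A difference that passed was found in 25.7% and 15.0%. The share of all items that met both was not counted, so the 11 have no background. The difference times 0.5 was 0.75 for myl1, 0.36 for myl10, 0.84 for myl13, 0.93 for mylpfa and 0.86 for mylz3 among light chains. It was 1.29 for pvalb2 and 0.88 for pvalb9 among parvalbumins, 0.57 for tnni2a.2 and 0.62 for tpm1. Higher on dye swaps were actn1 at −0.45 and myl12.2 at −0.28. The cause of the difference was not tested.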

How the results depend on the processing

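With swap columns turned by their dyes, 1984 items and 18 of the 70 genes were called and the median of the 70 was 0.007, against 376 items, 5 genes and 0.17 as reported. In that reading ckma (0.30), myl10 (0.36), myl13 (0.84) and tnni2a.2 (0.57) turned positive and were called, myl12.2 (−0.28), mylipa (−0.27) and tpm2 (−0.28) turned negative and were called, and actn2b (−0.034) and ckmt2b (−0.16) turned negative and lost their calls. The random replicate block left 248 items and 3 of the 70 genes with a dye term, and 114 items and 0 genes without one. Columns scaled to a common spread gave 170 items and 1 gene (median 0.15), quantile normalization 444 items and 7 genes (median 0.16) and 26 orientation calls, and the median of probes 366 items and 4 genes (median 0.16). Scaling gave 33 orientation calls against 18. Shares of all items called for the orientation part are not given for scaling or quantile normalization, so 33 and 26 have no background. Both of these settings for orientation calls, joining tnnt1, leaving out tpmt.1 and tpmt.2 and counting ckmt2b as muscle were chosen after seeing the data. Forward arrays alone gave 617 items, 10 genes past the test and a median of 0.18. On them 10 genes were at least 2-fold with one sign, against 4 as reported. As reported, 310 of 13261 items were at least 2-fold with one sign, and no such count of all items is given for other settings. Dye swaps alone gave 508 items, 3 genes past the test and a median of 0.11. Leaving out a replicate leaves 1 pair of extracts and no test; the median was then 0.19 or 0.18, and 3 to 6 genes were at least 2-fold with one sign. Platform symbols alone gave a median of 0.18, single probes 0.15 and joining tnnt1 to tnnt2c 0.16. Muscle genes alone, without the planned non-muscle list or without tpmt.1 and tpmt.2 too, held 3 calls (medians 0.16 and 0.17), a count that leaves out ckmt2b; with it, 53 genes held 4 calls (median 0.18). The cause of these changes was not tested.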
